A study of Homo sapiens with 6 samples.

Results

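Keratins, the intermediate filament proteins of epithelial cells, were taken as every protein-coding gene of the deposited table whose symbol is KRT followed directly by a digit, so that the keratin-associated KRTAP genes were left out. The rule gave 55 genes of the 58735 in the table, 5 of simple epithelium, 21 of stratified epithelium, 9 of the inner root sheath of the hair follicle, 17 of hair and nail, and 3 outside these classes. The cells were TPC-1, a line grown from a human papillary thyroid carcinoma. RNA sequencing covered 3 libraries from the wild strain and 3 from *RRM2*-OE-TPC-1, the same line infected with a lentivirus that carries full-length *RRM2* under a CMV promoter and then selected with puromycin. *RRM2* encodes the small subunit of ribonucleotide reductase. No empty vector and no puromycin selection are described for the wild strain, so the effects of *RRM2*, of the virus and of the selection cannot be told apart. Whether the overexpressing cells were a pool or a single clone is not stated. For overexpressing replicates 2 and 3 the genotype label says RRM3 and RRM4, respectively, but the title says *RRM2*.

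Keratins assemble as obligate pairs of an acidic type I chain and a basic type II chain, and the type I genes lie together on chromosome 17 and the type II genes on chromosome 12, with *KRT18* as the type I gene beside the type II cluster. Simple epithelia such as the thyroid follicle are known for *KRT8* and *KRT18*, with *KRT7* and *KRT19* in many glands and ducts. Stratified epithelia use *KRT5* and *KRT14* in the basal layer and other pairs above it, and the hair keratins harden the hair shaft. In these data 27 of the 55 genes lay on chromosome 12 and 28 on chromosome 17.

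The level of *RRM2* was 9.17, 9.05 and 8.52 FPKM in TPC-1 replicates 1 to 3 and 50.4, 47.5 and 47.2 FPKM in *RRM2*-OE-TPC-1 replicates 1 to 3, where FPKM is a read count divided by gene length and sequencing depth. Its fitted log2 fold change was 2.43 ± 0.04 (SE, n = 3 per group, limma, adjusted p = 1.11e-08), and the 3 libraries labelled as overexpressing lay above the other 3. The libraries held 14317091 to 17084067 reads on genes, and mitochondrial genes took 4.29% to 5.89% of them. The labelled thyroid origin was checked on 8 thyroid markers. *PAX8*, the transcription factor of the thyroid lineage, was at 69.9, 70.8 and 67.3 FPKM in TPC-1 and 56.3, 59.4 and 59.8 FPKM in *RRM2*-OE-TPC-1. Thyroglobulin (*TG*), which defines differentiated thyrocytes, was absent or nearly so, at 0.0267 to 0.113 FPKM over the 6 libraries.

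Several keratin genes are so alike in sequence that reads can fall on more than 1 of them, which bears on the values that follow. *KRT81* and *KRT86* are hair keratins read from opposite strands of chromosome 12, and *KRT81* lies inside the annotated span of *KRT86*. They shared 25.1% of the 150-base windows of *KRT81* transcripts and 20.3% of those of *KRT86*. A window of 150 bases has the length of a sequenced read. Over their coding sequence 91.2% of the *KRT81* bases were identical in *KRT86*. The pair of windows most alike is shown because no base tells the genes apart there. It lies at chr12:52291316-52291405 on the minus strand in *KRT81* and at chr12:52301977-52302066 on the plus strand in *KRT86*, in coding exons (GENCODE 29, GRCh38).
KRT81 and KRT86, most alike window: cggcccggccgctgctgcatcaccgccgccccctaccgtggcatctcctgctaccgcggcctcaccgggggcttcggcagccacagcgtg

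*KRT8* has many processed pseudogenes, and *KRT8P12* on chromosome 3 held more reads than any other pseudogene named KRT8P or KRT18P. It was chosen after its values were seen. Over the *KRT8* coding sequence, 86.5% of bases were identical in *KRT8P12*. The window most alike is shown for this pair, with differing bases in capitals, because a read there could be told apart by few bases. It had 5 differences, at chr12:52897444-52897533 (minus strand) in *KRT8* and chr3:160569141-160569230 (plus strand) in *KRT8P12*.
KRT8, most alike window: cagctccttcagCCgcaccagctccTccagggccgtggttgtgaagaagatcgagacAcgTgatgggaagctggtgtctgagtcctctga
KRT8P12, most alike window: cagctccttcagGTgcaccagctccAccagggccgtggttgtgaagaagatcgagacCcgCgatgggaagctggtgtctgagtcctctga
No 150-base window of *KRT8* was shared with *KRT8P12* or another pseudogene. Of the tested keratins, *KRT80*, *KRT10*, *KRT15*, *KRT79* and *KRT34* shared no such window with another annotated transcript.

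Keratin RNA in TPC-1 was carried by few genes. Of the 55 keratins, 10 reached 0.5 FPKM and 10 reads in at least 3 libraries and were tested. Another 4 had 10 or more reads over the 6 libraries together without reaching that level, 19 had 1 to 9 reads, and 22 had none in any library, including all 9 inner root sheath keratins. A count of 0 allows up to 3 reads a library, which for a gene of 1 kb is 0.175 to 0.208 FPKM, a bound that covers counting error only. The summed keratin level did not separate the groups, with 745, 684 and 721 FPKM in TPC-1 and 749, 717 and 683 FPKM in *RRM2*-OE-TPC-1. The plot of keratin levels by library shows the 10 tested genes.

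**Figure D1:**
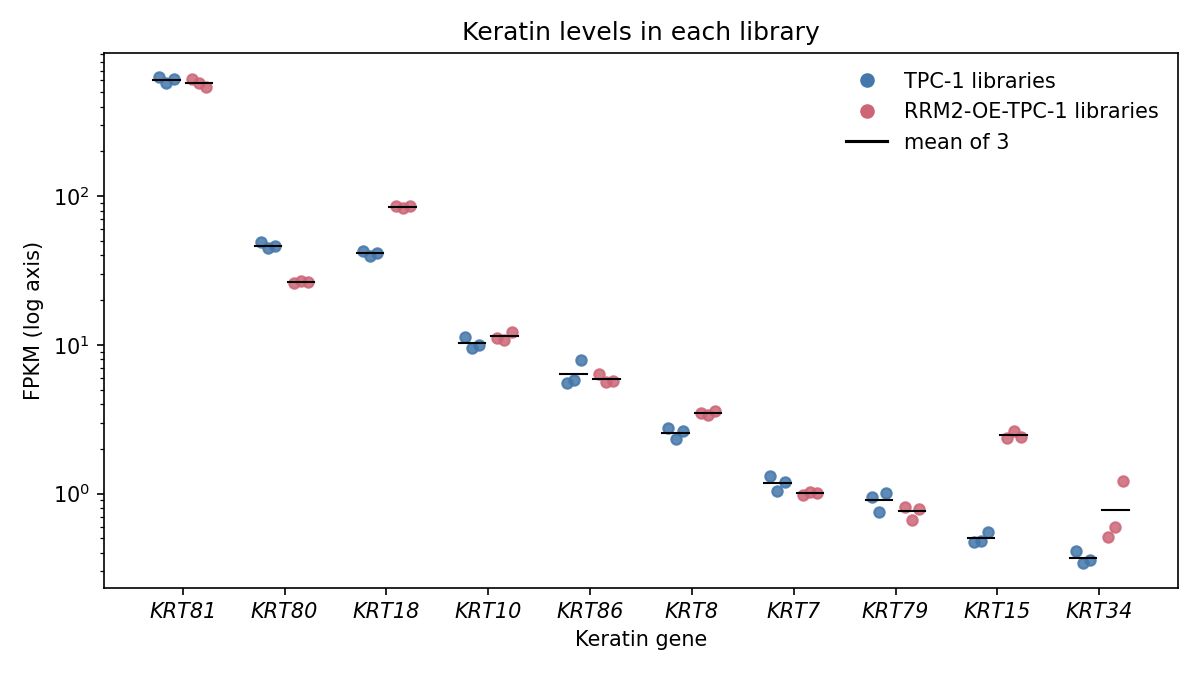
FPKM (log axis) of the 10 tested keratins in each library, with TPC-1 libraries in blue, RRM2-OE-TPC-1 libraries in red and black lines at the mean of 3. KRT81 lies highest in both groups, KRT18 and KRT15 lie higher in RRM2-OE-TPC-1, KRT80 lies lower, and the points of KRT81, KRT10, KRT86 and KRT79 overlap.

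Between the groups, 2 of the 10 tested keratins were called higher in *RRM2*-OE-TPC-1, *KRT18* and *KRT15*, and 0 were called lower. Called means an adjusted p of 0.05 or less (limma on log2(FPKM + 0.1), Benjamini-Hochberg over all 13621 tested genes) together with a log2 fold change of at least 1 in size. Of all tested genes 4.48% were called higher, 6.97% lower and 11.5% in either direction. With the adjusted p alone, 4 keratins were higher and 1 was lower, 5 of 10 beside 67.6% of all tested genes. The groups did not overlap for 6 of the 10, beside 72.2% of all tested genes. In the lower direction 1 keratin had an unadjusted p under 0.05, and voom on the recovered reads also called 0 lower. The median log2 fold change of the 10 was 0.04, against 0.01 over all tested genes, but *KRT15* and *KRT34* passed the minimum only through the libraries of *RRM2*-OE-TPC-1. In bulk RNA a change in every cell and a change in the share of cells that express a gene cannot be told apart. The plot of fold changes orders the 10 genes.

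**Figure D2:**
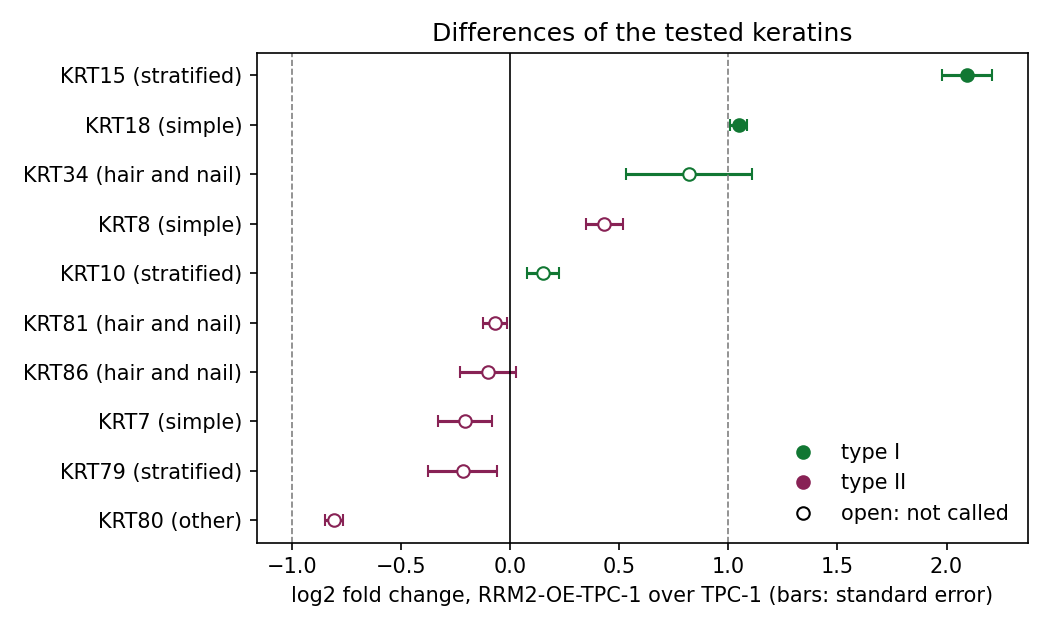
Fitted log2 fold change of each tested keratin (RRM2-OE-TPC-1 over TPC-1, horizontal axis, bars are standard errors, 3 libraries a group), with type I genes in green, type II genes in purple, filled symbols for called genes and dashed lines at -1 and 1. The 4 type I genes lie at 0.15 or more, and of the 6 type II genes only KRT8 lies above 0. Of the type I genes, KRT15 and KRT34 passed the minimum for a test only through the RRM2-OE-TPC-1 libraries, where they are high.

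Among the simple epithelial keratins, *KRT18* rose, *KRT8* rose by less, and *KRT7* did not pass the test. *KRT18* (ENSG00000111057, chr12:52948871-52952901), the type I chain of the simple epithelial pair, was at 43.0, 39.4 and 41.2 FPKM in TPC-1 and at 85.9, 83.7 and 85.9 FPKM in *RRM2*-OE-TPC-1. All 3 overexpressing libraries lay above all 3 of the wild strain. The ratio of the means was 2.07, from 41.2 ± 1.8 to 85.2 ± 1.3 FPKM (SD, n = 3 each), and the fitted log2 fold change was 1.05 ± 0.04 (SE, limma, adjusted p = 2.74e-07). With FPKM rescaled to the totals of reads on genes it was 0.99 at an adjusted p of 2.33e-07, which falls just short of the fold threshold and leaves 1 called keratin.

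*KRT8* (ENSG00000170421, chr12:52897187-52949954), the type II partner of *KRT18*, was at 2.75, 2.32 and 2.62 FPKM in TPC-1 and at 3.46, 3.38 and 3.60 FPKM in *RRM2*-OE-TPC-1. The groups did not overlap, and the log2 fold change was 0.43 ± 0.08 (SE, limma, adjusted p = 0.00218), a ratio of means of 1.36. The partners thus moved by unequal amounts. *KRT18* was 15.6, 17.0 and 15.7 times as high as *KRT8* in TPC-1 and 24.8, 24.8 and 23.8 times as high in *RRM2*-OE-TPC-1, with no overlap. The size of this ratio depends on length. The table gives *KRT8* a length of 6881 bases, whereas its longest basic protein-coding transcript with a consensus coding sequence has 2126, and for *KRT18* the lengths were 3218 and 1562. Per kilobase of these transcripts, an alternative chosen after seeing the data, *KRT18* was 9.94, 10.8 and 10.02 times as high as *KRT8* in TPC-1 and 15.8, 15.8 and 15.2 times as high in *RRM2*-OE-TPC-1.

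Reads of these partners were also hard to place. The exons of *KRT8* and *KRT18* overlap on opposite strands over 525 bases, 16.3% of the exon bases of *KRT18* and 7.63% of those of *KRT8*. The kit named in the methods marks strand, but the labels describe another RNA preparation. Whether the counting used strand is not stated, and without it reads there could not be told apart. Of the 50 pseudogenes named KRT8P, 17 held a read, and together they took 26.0% to 32.5% of the reads on *KRT8* and its pseudogenes in each library. For the 67 named KRT18P, of which 25 held a read, the share was 0.496% to 1.84%. *KRT8P12* itself was at 2.43, 2.27 and 2.08 FPKM in TPC-1 and at 3.35, 2.85 and 2.54 FPKM in *RRM2*-OE-TPC-1, a log2 fold change of 0.35 ± 0.11 (SE, limma, adjusted p = 0.0259). Its FPKM was thus near that of *KRT8*, for which the table divides by 6881 bases, and the groups did not overlap in either gene. In reads *KRT8P12* was well below *KRT8*, with 83, 78 and 68 against 316, 268 and 287 in TPC-1. In *RRM2*-OE-TPC-1 it had 99, 100 and 83 reads against 344, 398 and 395.

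*KRT7* (ENSG00000135480, chr12:52232520-52252186), a type II keratin of glands and ducts, was at 1.30, 1.05 and 1.20 FPKM in TPC-1 and at 0.980, 1.03 and 1.01 FPKM in *RRM2*-OE-TPC-1. Its log2 fold change was -0.21 ± 0.12 (SE, limma, adjusted p = 0.169), although the groups did not overlap. *KRT19* (ENSG00000171345), the type I keratin often paired with it, was nearly absent, with 0, 1 and 0 reads in TPC-1 and 2, 5 and 4 reads in *RRM2*-OE-TPC-1, and stayed below the minimum for a test. *KRT20*, the intestinal type I keratin, had 1 read in all.

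Among the stratified keratins, 1 of the 3 tested genes rose, *KRT15*, and 18 of the 21 stayed under the minimum. *KRT15* (ENSG00000171346, chr17:41513743-41522529) is a type I keratin of basal keratinocytes and of the hair follicle bulge. It was at 0.475, 0.479 and 0.550 FPKM in TPC-1, on 56 to 62 reads a library, and at 2.36, 2.63 and 2.42 FPKM in *RRM2*-OE-TPC-1, on 241 to 318 reads. Only through the latter libraries did it pass the minimum for a test. The groups lay far apart, with a ratio of means of 4.92 and a log2 fold change of 2.09 ± 0.12 (SE, limma, adjusted p = 1.96e-06). This fitted value is understated by the pseudocount at such levels. It was 1.21 with a pseudocount of 1 and 2.30 with voom on the reads, and it was called in all 14 alternatives.

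*KRT10* (ENSG00000186395, chr17:40818117-40822595), the type I keratin of the suprabasal epidermis, was the most abundant stratified keratin in both groups. It was at 11.3, 9.57 and 10.04 FPKM in TPC-1 and at 11.2, 10.9 and 12.2 FPKM in *RRM2*-OE-TPC-1, with overlap. Its log2 fold change was 0.15 ± 0.07 (SE, limma, adjusted p = 0.0957), and without TPC-1 replicate 1 the adjusted p was 0.0212 at 0.22. *KRT79* (ENSG00000185640, chr12:52821410-52834295), a type II keratin of the hair canal, was at 0.943, 0.749 and 1.01 FPKM in TPC-1 and at 0.816, 0.666 and 0.790 FPKM in *RRM2*-OE-TPC-1, a log2 fold change of -0.22 ± 0.16 (SE, limma, adjusted p = 0.253). The groups overlapped.

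Below the minimum, *KRT78* had 6, 12 and 11 reads in TPC-1 and 8, 9 and 13 in *RRM2*-OE-TPC-1, and *KRT4*, of moist stratified mucosa, had 1, 3 and 2 against 7, 2 and 2. *KRT5* and *KRT14*, the basal pair, were looked up after the values had been seen. *KRT5* had no read in TPC-1 and 2, 4 and 0 in *RRM2*-OE-TPC-1, and *KRT14* had 1 read in all. Both were under the minimum in all 6 libraries.

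The hair and nail keratins held most of the keratin signal. *KRT81* (ENSG00000205426, chr12:52285913-52291534), a type II keratin of the hair cortex, was at 630, 580 and 609 FPKM in TPC-1 and at 611, 581 and 543 FPKM in *RRM2*-OE-TPC-1. It ranked 31 to 38 among all genes of a library by FPKM and made up 84.5% to 84.7% of summed keratin FPKM in TPC-1 and 79.5% to 81.5% in *RRM2*-OE-TPC-1. The groups overlapped, and the log2 fold change was -0.07 ± 0.06 (SE, limma, adjusted p = 0.301). Its transcript length equals the length in the table, 1929 bases, so this level does not depend on that choice.

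*KRT86* (ENSG00000170442, chr12:52249300-52309163), whose annotated span holds *KRT81* on the other strand, was at 5.51, 5.81 and 7.89 FPKM in TPC-1 and at 6.42, 5.58 and 5.69 FPKM in *RRM2*-OE-TPC-1. TPC-1 replicate 3 was the highest of the 6, and the log2 fold change was -0.10 ± 0.13 (SE, limma, adjusted p = 0.511). Without that library it was 0.056, in the other direction, at an adjusted p of 0.566. How the counting placed reads from the windows that *KRT81* and *KRT86* share is not stated, so the low level of *KRT86* is uncertain beside the high one of *KRT81*.

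*KRT34* (ENSG00000131737, chr17:41377650-41382403), a type I hair keratin, was at 0.411, 0.340 and 0.358 FPKM in TPC-1 and at 0.514, 0.600 and 1.22 FPKM in *RRM2*-OE-TPC-1. These values rest on 10 to 12 and 13 to 34 reads a library, and *RRM2*-OE-TPC-1 replicate 3 stood above the other two of its group. The log2 fold change was 0.82 ± 0.29 (SE, limma, adjusted p = 0.0344), under the fold threshold. It was 0.48 without that replicate at an adjusted p of 0.0791, and 1.04 without *RRM2*-OE-TPC-1 replicate 1 at 0.0165, where it was called. Only through the libraries of *RRM2*-OE-TPC-1 did *KRT34* pass the minimum for a test. Its adjusted p (limma) was 0.138 without a filter on low values and 0.0762 with the FPKM minimum alone. Over all alternatives it ran from 0.0165 to 0.138. *KRT33B*, another type I hair keratin, had 4, 0 and 2 reads in TPC-1 and 10, 4 and 10 in *RRM2*-OE-TPC-1 and was not tested.

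*KRT80* (ENSG00000167767, chr12:52168996-52192000), a type II keratin found near desmosomes in many epithelia, was in none of the classes above and was lower in *RRM2*-OE-TPC-1. It was at 48.8, 44.7 and 46.1 FPKM in TPC-1 and at 26.1, 27.1 and 26.4 FPKM in *RRM2*-OE-TPC-1, every library of one group below every library of the other. The log2 fold change was -0.81 ± 0.04 (SE, limma, adjusted p = 1.16e-06), 1.75-fold lower by the means, and it did not reach the fold threshold in any of 14 alternatives, which ran from -0.87 to -0.77. *KRT80* and *KRT18* stood close together in TPC-1, at means of 46.6 and 41.2 FPKM, and their order depends on length, with 52.0 for *KRT80* and 84.9 for *KRT18* per kilobase of transcript. In *RRM2*-OE-TPC-1 *KRT18* was the higher of them on both scales.

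Summed over members, simple keratins were at 47.0, 42.8 and 45.0 FPKM in TPC-1 and 90.4, 88.3 and 90.6 FPKM in *RRM2*-OE-TPC-1. *KRT18* made up 91.4% to 92.1% and 94.8% to 95.0% of this sum, so it describes that gene. Stratified keratins were at 12.9, 11.1 and 11.9 FPKM in TPC-1 and 14.8, 14.6 and 15.9 FPKM in *RRM2*-OE-TPC-1, also without overlap. Without *KRT15* the stratified sums overlapped, at 10.6 to 12.4 FPKM in TPC-1 and 12.0 to 13.5 FPKM in *RRM2*-OE-TPC-1. The ratio of simple to stratified FPKM was 3.65, 3.87 and 3.80 in TPC-1 and 6.11, 6.04 and 5.69 in *RRM2*-OE-TPC-1. No p is given for sums over chosen members. The log2 difference of that ratio was 0.66, and 0.30 when reads scaled to depth alone took the place of FPKM, on which *KRT15*, with a length of 7069 bases in the table, weighs more.

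By chain type, the sum of type I keratins was 55.5, 49.8 and 52.3 FPKM in TPC-1 and 101, 98.3 and 102 FPKM in *RRM2*-OE-TPC-1. Type II keratins overlapped between groups, at 690, 634 and 668 FPKM against 649, 619 and 581 FPKM. The type II to type I ratio was 12.4, 12.7 and 12.8 in TPC-1 and 6.45, 6.30 and 5.67 in *RRM2*-OE-TPC-1. Without *KRT81*, a choice made after seeing the data, type II keratins summed to 59.5, 54.9 and 59.1 FPKM in TPC-1 and 38.2, 38.1 and 37.9 FPKM in *RRM2*-OE-TPC-1. The ratio to type I was then 1.07, 1.10 and 1.13 in TPC-1 and 0.379, 0.388 and 0.370 in *RRM2*-OE-TPC-1. These sums and ratios use the lengths of the table, and the near-even ratio in TPC-1 depends on them. Per kilobase of transcript, *KRT18* had a mean of 84.9 FPKM and *KRT80* of 52.0 FPKM in TPC-1. *KRT80* was 78.0% to 82.1% of that smaller type II sum in TPC-1 and 68.4% to 71.1% in *RRM2*-OE-TPC-1. The plot of summed levels shows these quantities by library.

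**Figure D3:**
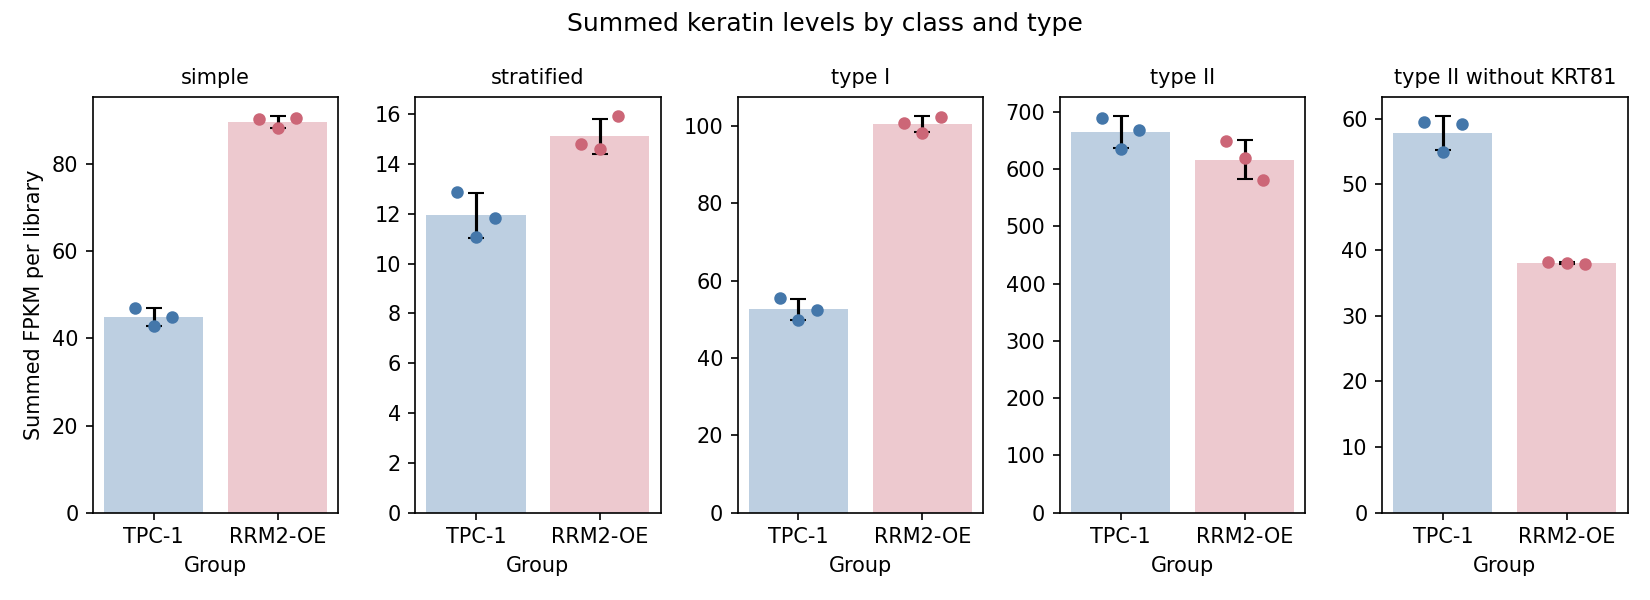
Summed FPKM per library of simple, stratified, type I and type II keratins and of type II keratins without KRT81, each panel with its own axis from 0. Points are libraries, bars are means of 3 and error bars are SD. The groups are apart in every panel except type II, where they overlap at 634 to 690 and 581 to 649 FPKM.

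Keratin linkers and filament organisers were examined as a list of 21 genes. It is broader than genes whose products bind or cross-link keratin, and includes the proteases *CASP6* and *CAPN1*, and *TRIM16* and *KRTCAP2*. Of the 21 genes 15 were tested. With the adjusted p alone 11 were higher and 3 lower, beside 67.6% of all tested genes in either direction. Of the 15, 2 were called higher and 1 lower, beside 11.5% of all tested genes, and the median log2 fold change was 0.34 against 0.01. *JUP*, plakoglobin of the desmosomal plaque, fell from 44.7, 40.7 and 42.7 FPKM to 11.4, 10.9 and 10.4 FPKM, a log2 fold change of -1.96 ± 0.05 (SE, limma, adjusted p = 5.43e-08). *YWHAH*, a 14-3-3 protein of the family that binds phosphorylated keratin 18, rose from 38.4, 38.2 and 37.8 FPKM to 80.7, 79.8 and 80.4 FPKM (log2 fold change 1.07 ± 0.03). *FAM83H*, which brings casein kinase to keratin filaments, rose from 6.41, 6.17 and 5.98 FPKM to 12.4, 12.3 and 12.9 FPKM (log2 fold change 1.01 ± 0.05). The desmosomal linker *DSP*, chosen after its values were seen, was listed at 0 in the 3 TPC-1 libraries and had a mean of 0.0312 FPKM in *RRM2*-OE-TPC-1.

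Of 16 other intermediate filament genes 7 were tested, 4 higher and 2 lower by adjusted p (67.6% over all tested genes), and none was called (11.5% over all tested genes). *VIM*, the filament of mesenchymal cells and of many cultured lines, was at 116, 114 and 117 FPKM in TPC-1 and 172, 171 and 173 FPKM in *RRM2*-OE-TPC-1, a log2 fold change of 0.57 ± 0.03 (SE, limma, adjusted p = 1.30e-06). By FPKM it thus lay above *KRT18* and below *KRT81* in all 6 libraries. The plot of filament genes gives each tested member of both lists.

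**Figure D4:**
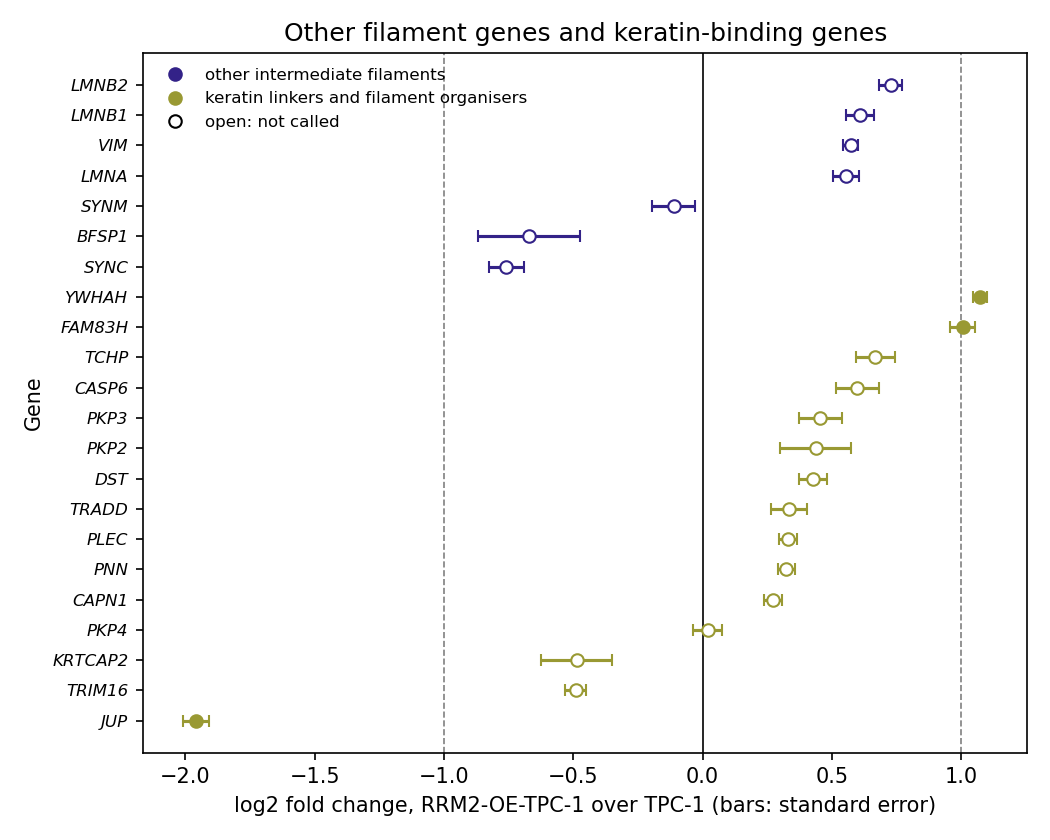
Fitted log2 fold change (RRM2-OE-TPC-1 over TPC-1, bars are standard errors) of 7 tested genes of other intermediate filaments and 15 of keratin linkers and filament organisers, with filled symbols for called genes and dashed lines at -1 and 1. JUP stands alone at -1.96, and YWHAH and FAM83H lie just past 1.

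The list of epithelial transcription factors held 21 genes, among them the splicing regulators *ESRP1* and *ESRP2*, which were under the minimum. Of the 21 genes 10 were tested. By adjusted p 3 were higher and 6 lower, beside 67.6% of all tested genes, and 1 was called higher and 4 lower, beside 4.48% and 6.97%. Their median log2 fold change was -0.76, against 0.01 over all tested genes. *CEBPB* and *CEBPD*, of the C/EBP family, fell by 1.59 and 1.55 on the log2 scale, from 78.0 to 87.8 and 60.5 to 64.8 FPKM in TPC-1 to 25.8 to 30.03 and 20.9 to 22.4 FPKM in *RRM2*-OE-TPC-1. *TFAP2A* and *ELF3* fell by 1.23 and 1.06, and *KLF5*, a factor of proliferating epithelium, rose by 1.14 on the same scale. *TP63*, which defines basal stratified epithelium, was under the minimum, with means of 0.00266 and 0.00309 FPKM.

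The differentiation genes of the epidermis were mostly silent. Of the 29 genes listed, 15 were at 0 in every library and 2 were tested. *FLG*, which bundles keratin in the cornified layer, rose from 10.8, 11.4 and 10.6 FPKM to 24.5, 25.1 and 26.4 FPKM, a log2 fold change of 1.21 ± 0.05 (SE, limma, adjusted p = 3.23e-07). The other tested gene, *CNFN*, lay the other way with overlap, at -0.51 ± 0.29 (SE, limma, adjusted p = 0.156). Thus 1 of 2 was called, beside 11.5% of all tested genes.

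Of 7 basal squamous markers 2 were tested, and the integrin subunit *ITGA6* was called, with 6.76, 5.67 and 6.07 FPKM in TPC-1 and 13.7, 12.8 and 12.97 FPKM in *RRM2*-OE-TPC-1 (log2 fold change 1.08 ± 0.07), 1 of 2 called beside 11.5% of all tested genes. Its partner chain *ITGB4*, under the minimum and chosen after its values were seen, lay the other way, with 39, 33 and 40 reads in TPC-1 and 5, 2 and 2 in *RRM2*-OE-TPC-1. The summed level of that list was 7.68 to 8.98 FPKM in TPC-1 and 15.5 to 16.5 FPKM in *RRM2*-OE-TPC-1, most of it *ITGA6*, *DSG3* was at 0 in every library, and the part of the list in the rise of *KRT15* was not tested.

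General epithelial markers were low. *EPCAM* was at 0 to 0.0238 FPKM in TPC-1 and 0.0549 to 0.125 FPKM in *RRM2*-OE-TPC-1, and *CDH1*, epithelial cadherin, was at 0.0679 to 0.0866 and 0.0448 to 0.0567 FPKM. Of the 7 markers 1 was tested, *MUC1*, which fell from 5.45, 5.85 and 5.36 FPKM to 1.80, 2.18 and 2.25 FPKM (log2 fold change -1.38 ± 0.09). Of the 8 thyroid markers 3 were tested, with 1 higher and 2 lower by adjusted p, which 67.6% of all tested genes passed, and none was called, beside 11.5% of all tested genes. The difference in *KRT18* was thus measured in cells with hardly any *EPCAM* or *CDH1* RNA in either group.

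Markers of other cell types were mostly low in both groups. The 8 fibroblast markers summed to 2.80 to 3.20 FPKM in TPC-1 and 2.79 to 2.96 FPKM in *RRM2*-OE-TPC-1, with 3 at 0 in every library, among them *DCN* and *COL1A2*. Most of that sum was *PDGFRB*, at 2.34, 1.82 and 2.19 FPKM in TPC-1 and 2.53, 2.32 and 2.26 FPKM in *RRM2*-OE-TPC-1. *COL1A1*, also tested, had means of 0.816 and 0.501 FPKM (log2 fold change -0.61 ± 0.17, SE, limma, adjusted p = 0.0129). The 8 leukocyte and endothelial markers summed to 1.22 to 1.46 FPKM and 0.251 to 0.282 FPKM, with 2 at 0 in every library. Of these *PECAM1* alone was tested, and it passed the minimum only through TPC-1, where it is high, at 0.857, 1.04 and 0.873 FPKM against 0.0267, 0.0527 and 0.0971 FPKM on 3, 7 and 12 reads in *RRM2*-OE-TPC-1. The part of these lists in the keratin values was not tested.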

How the data were processed

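The authors cleaned reads with fastp, aligned them with HISAT2 2.0.5, counted them per gene with featureCounts 1.5.0 and deposited FPKM values, divided by gene length and depth. The processing notes name GRCh38.p14, and all 55 keratins had the identifier and position of GENCODE 29. The methods describe poly(A) selection, but the labels tell of rRNA depletion followed by RNase R. The strand setting of the counting is not given in the sources used here.

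Multiplied by gene length, 100% of values were whole multiples (within 0.01) of a step per library, which gave reads. Genes with 0.5 FPKM and 10 reads in at least 3 libraries (13621) were tested with limma 3.58.1 in R 4.3.3, lmFit and eBayes with trend, on log2(FPKM + 0.1). The authors used DESeq2 1.20.0, and no count model was the main test here because FPKM was deposited. The submitters call the libraries biological triplicates, separate cultures are not described further, and the p-values measure the spread between these libraries. On simulated data with 13537 genes tested, both thresholds together called 95 of 96 genes changed 4-fold, 35 of 97 changed 2-fold, where 91 passed the adjusted p, and 1 unchanged gene. An exact permutation test of 3 against 3 cannot go below p = 0.1 and was not used.

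The members, classes and lists were chosen with earlier results of these data known. Named are *RRM2*, keratins that were tested or had 10 reads in all, the called genes of each list with the largest change (at most 5), and *VIM*, *EPCAM*, *CDH1*, *PAX8* and *TG*. Keratins with fewer reads, *TP63*, *DSP*, *ITGB4* and other genes at 0 were named after their values were seen. So were *PDGFRB*, *COL1A1*, *CNFN*, *ESRP1*, *ESRP2*, *CASP6*, *CAPN1*, *TRIM16* and *KRTCAP2*. Alternatives were other pseudocounts, filters, scalings, left-out libraries, the replicate number as a block, voom, adjusted p alone, depth-scaled reads for sums and pseudogene reads added to their parents. Some sequence windows are not reported here.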

Additional observations from a re-analysis of the deposited data

How the results depend on the processing

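*KRT18* and *KRT15* were both called with pseudocounts of 1 and 0.01, without a filter, with median-of-ratios factors, with voom and with pseudogene reads added. Scaled to library totals, 1 keratin was called higher and the log2 difference of summed simple keratins was 0.94 instead of 1.00. With adjusted p alone, 4 keratins were higher and 1 lower, and 9207 genes were called in place of 1560. A pseudocount of 1 gave 716 called genes (303 higher, 413 lower), and no filter gave 920 higher in place of 610. In reads scaled to depth alone, the log2 differences were 0.66 for stratified keratins (0.34 in FPKM), 0.30 for simple over stratified (0.66), 1.00 for type I (0.94) and -1.15 for type II over type I (-1.05). Without *KRT15* they were 0.15 for stratified keratins and 0.85 for simple over stratified, and without *KRT81* -0.60 for type II (-0.11) and -1.54 for type II over type I, both chosen after seeing the data. With each library left out, 2 to 3 keratins were called higher and 0 lower, and *KRT86* ran from -0.20 to 0.056, turning from -0.10 to 0.056 without TPC-1 replicate 3. The cause was not tested, apart from the genes and lengths that each alternative changes. Groups of 3 libraries were not screened for outliers.

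The replicate numbers did not pair the samples. The deviations of same-numbered libraries from their group means correlated at -0.0105, -0.00602 and -0.0550, and no library correlated best with its own number. With the replicate number as a block, 2 keratins were called higher, 0 lower and 1566 genes in all. Sums over members had no fit and no block.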
